A study of Mus musculus with 9 samples.

Results

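The receptor tyrosine kinases Axl, Mertk and Tyro3, known together as the TAM receptors, and their bridging ligands Gas6 and Pros1 were followed through 9 single-cell libraries of mouse brain myeloid cells. The 5 genes were taken by their symbols from the 31053 genes of the files, whatever their counts. CD11b+ cells had been sorted by flow cytometry from the brains of female mice aged 5 months (C57BL/6 by the labels, C57BL/6J in the methods of the study) and profiled with the 10x Genomics 3′ chemistry, in which unique molecular identifiers (UMIs) count RNA molecules. Ctrl mice were untreated, with 3 libraries of 1 brain each. D0 mice had received diet with PLX5622, an inhibitor of the CSF1 receptor on which microglia depend, at 1200 mg/kg for 14 days, and D2 mice had then returned to control diet for 2 days, with 3 libraries of 2 pooled brains in each group. The cells of D0 are those that remained under the drug. The library was the replicate in every test, so p-values measure the spread between libraries, each of which holds 1 brain or a pool of 2.

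TAM receptors bind phosphatidylserine on dying cells through Gas6 or protein S, the product of Pros1. Both ligands need a vitamin K-dependent carboxylation to bind the lipid, and the receptors then drive engulfment and restrain cytokine and interferon signalling. In the healthy brain Mertk is the receptor known for clearance by microglia, Axl is known to be raised in inflamed or disease-associated microglia, and Tyro3 is mostly a receptor of neurons and other neural cells.

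The libraries held 2875 to 5721 barcodes and 20257894 to 61230741 UMIs. After the limits on UMIs and genes, 22131 cells of 8 libraries fell into microglia-like clusters, named from marker genes. By the file headers, Cell Ranger 3.0.2 had made Ctrl-1, all D0 libraries, D2-1 and D2-2, and version 3.1.0 the other libraries, so the version ran with the groups in part. Library D2-3 stood apart: 37.3% of its barcodes were over the UMI limit, and 559 of its 637 microglia-like cells lay in 1 mitotic cluster. The study left it out, and it is given here beside the other 8 libraries. Its cells were not clustered. Each was given the cluster most common among its 30 nearest neighbours from the other libraries. No pair of libraries shared more than 8 cell barcodes.

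Axl and Mertk were the members whose level in microglia differed between groups, and the 250 bases before their RefSeq starts are shown for that reason. The Axl gene (ENSMUSG00000002602) lies on the minus strand at chr7:25757273-25788705 of GRCm38, and its window is chr7:25788734-25788983, minus strand. The Mertk gene (ENSMUSG00000014361) lies on the plus strand at chr2:128698956-128802894, and its window is chr2:128698665-128698914, plus strand. Both windows are read 5′ to 3′ along their gene, and capitals mark the motifs that were found.
Axl: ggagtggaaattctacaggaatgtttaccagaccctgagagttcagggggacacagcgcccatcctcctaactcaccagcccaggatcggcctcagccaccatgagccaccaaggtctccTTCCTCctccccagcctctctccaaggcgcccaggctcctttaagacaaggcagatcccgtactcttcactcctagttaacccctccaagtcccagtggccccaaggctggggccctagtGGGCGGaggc
Mertk: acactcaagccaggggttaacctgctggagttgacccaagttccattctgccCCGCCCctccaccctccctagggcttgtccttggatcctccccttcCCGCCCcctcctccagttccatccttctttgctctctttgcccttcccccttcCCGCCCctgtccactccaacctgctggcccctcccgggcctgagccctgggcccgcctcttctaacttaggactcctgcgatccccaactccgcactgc

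5 motifs were searched on both strands, and none of the hits in these windows overlapped another. The Axl window held 1 GC box (GGGCGG) 10 bases before the start and 1 ETS core (GAGGAA) on the opposite strand, whereas the Mertk window held 3 GC boxes on the opposite strand. Neither held an interferon-stimulated response element (GAAA, any 2 bases, GAAA), a gamma-activated site (TTCNNNGAA) or an AP-1 site (TGANTCA). Over 32851 windows of this length, 32.7% held a GC box, 23.3% an ETS core, 2.98% the interferon element, 7.02% the gamma-activated site and 6.75% the AP-1 site. GC boxes were also found in the windows of Tyro3 (3), Gas6 (4) and Pros1 (5), and a gamma-activated site in that of Pros1 alone. A match is a run of letters and not a measured site.

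In microglia-like cells, Axl rose under PLX5622 while Mertk fell, and both were again called against Ctrl after 2 days of control diet. Levels are UMI counts brought to a common library total (CPM) and scaled between libraries by edgeR's trimmed mean of M-values (TMM). Axl had 3.51, 2.11 and 2.51 CPM in the Ctrl libraries, 37.5, 34.1 and 25.6 CPM in D0, and 37.0 and 34.6 CPM in D2. Every D0 and D2 library lay above every Ctrl library, and the D0 and D2 libraries overlapped. The means were 2.71 ± 0.718 (SD, n = 3) in Ctrl, 32.4 ± 6.11 (SD, n = 3) in D0 and 35.8 ± 1.70 (SD, n = 2) in D2. In edgeR's quasi-likelihood test the log2 fold change of Axl was 3.56 (SE 0.22, adjusted p = 5.17e-06) in D0 against Ctrl, or 11.8-fold, and 3.70 (SE 0.23, adjusted p = 6.16e-06) in D2 against Ctrl. Over all kept myeloid cells in place of microglia the change of Axl was 2.16 in D0 and 2.26 in D2, and without the upper limit on UMIs per cell it was 2.96 and 3.03. In D2-3 Axl stood at 37.3 CPM before scaling, beside 33.8 and 37.5 in the other D2 libraries.

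Mertk, a receptor for engulfment of dying cells, had 357, 367 and 332 scaled CPM in Ctrl, 256, 236 and 245 in D0, and 230 and 257 in D2. The Ctrl libraries lay above all the others, and those of D0 and D2 overlapped. Its mean went from 352 ± 18.1 (SD, n = 3) to 246 ± 9.99 (SD, n = 3) in D0 and 243 ± 19.3 (SD, n = 2) in D2. The log2 fold change of Mertk was -0.52 (SE 0.10, edgeR adjusted p = 0.00744) in D0 and -0.53 (SE 0.12, adjusted p = 0.0113) in D2. The Mertk call, unlike that of Axl, was lost when cells were thinned to 2000 UMIs (-0.37, adjusted p = 0.057 in D0), when the mitotic cluster was left out (-0.37, adjusted p = 0.059 in D0) and when D2-3 was added (-0.50, adjusted p = 0.72 in D0). With a term for the Cell Ranger version the change was -0.54 (adjusted p = 0.0369) in D0 and -0.56 (adjusted p = 0.0446) in D2, and among the libraries of version 3.0.2, of which 1 is Ctrl, it was -0.52 (adjusted p = 0.097) in D0. Without D2-1 the Mertk change in D2 was -0.42 (adjusted p = 0.11). In fits that leave 1 library in a group, that library is assumed to vary like those of the other groups. D2-3 held 34.1 CPM of Mertk before scaling, far under the 211 to 403 of the other libraries. Within the mitotic cluster alone it held 16.6 CPM, against 145 in D2-1 and 113 in D2-2.

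The ligands gave no call in microglia. Pros1, which codes for protein S, had 246, 243 and 219 scaled CPM in Ctrl, 243, 219 and 230.1 in D0 and 207 and 246 in D2. The groups overlapped throughout, and the log2 differences of Pros1 were -0.03 (interval -0.25 to 0.19 at 2 SE, edgeR adjusted p = 0.88) in D0 and -0.06 (-0.31 to 0.19, adjusted p = 0.78) in D2. Gas6, which binds all TAM receptors, had 136, 128 and 143 scaled CPM in Ctrl, 100.1, 120.2 and 217 in D0 and 137 and 68.6 in D2. The Ctrl libraries lay close together while those of D0 and D2 spread widely, with an SD of 7.50 in Ctrl, 62.4 in D0 and 48.2 in D2. The log2 difference of Gas6 was 0.10 (-0.50 to 0.71 at 2 SE, edgeR adjusted p = 0.84) in D0 and -0.40 (-1.08 to 0.29, adjusted p = 0.46) in D2. With 1 library left out it lay between -0.30 and 0.31 in D0 and between -0.95 and 0.01 in D2. In D2-3 the level before scaling was 178 CPM for Pros1 and 49.0 CPM for Gas6.

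**Figure D1:**
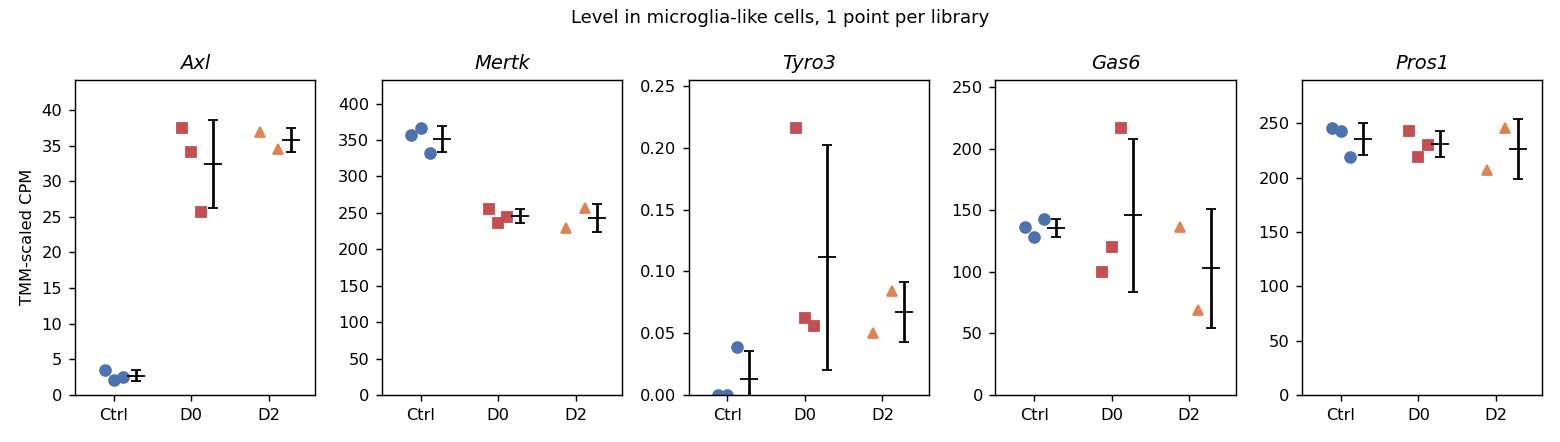
Level of each member in microglia-like cells (TMM-scaled CPM), with 1 point per library, groups on the horizontal axis and bars for the mean and SD. For Axl the D0 and D2 libraries (25.6 to 37.5 CPM) sit above the Ctrl libraries (2.11 to 3.51), and for Mertk they sit below (230 to 257 against 332 to 367).

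Tyro3, the remaining receptor, was near the limit of detection in these cells. Its UMIs in microglia numbered 0, 0 and 1 in the Ctrl libraries, 4, 2 and 1 in D0, 1 and 1 in D2 and 1 in D2-3, so it did not pass the filter on low counts. A count of 0 over the microglia of a library allows a Tyro3 level of up to 0.113 CPM in Ctrl-1 and 0.160 CPM in Ctrl-2. These limits, like the intervals on shares given further on, cover counting error only.

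Of the 4 members tested, 1 was called higher and 1 lower in each comparison with Ctrl. Over the 12402 genes tested, 19.7% were called in D0 against Ctrl, 12.3% higher and 7.43% lower, and 18.5% in D2 against Ctrl, 10.8% higher and 7.71% lower. Groups that did not overlap, with the treated libraries above, were found for 18.8% of genes in D0 and 23.5% in D2, and with the treated libraries below for 19.7% and 25.8%. The comparisons share the Ctrl libraries. Between D2 and D0 no member was called (Axl 0.14, adjusted p = 0.85, and Mertk -0.01, adjusted p = 0.98), and edgeR called 0% of all genes there, with 852 at an unadjusted p under 0.05, while DESeq2 called 10 higher and 17 lower. On total UMIs as the scale, the median gene moved by -0.26 in D0, against -0.05 with TMM, and 1150 genes were called higher and 2689 lower, against 1525 and 921. Axl (3.35) and Mertk (-0.72, adjusted p = 0.00181) kept their directions on that scale, and Gas6 in D0 turned to -0.11 without a call.

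Marker sums of other cells also differed between the groups in microglia-like cells, and their part in the Axl and Mertk results was not tested except by the values given here. The 8 mitotic genes summed to between 9.09 and 19.98 CPM in the Ctrl libraries, between 554 and 647 in those of D0 and between 816 and 842 in those of D2. Markers of border-associated macrophages, the resident macrophages of meninges and vessels, summed to 7.7 to 11.4, 10.1 to 13.1 and 12.1 to 20.6 CPM, against 2984 CPM in their own cluster. The 11 dendritic cell markers summed to 272 to 376 CPM in Ctrl libraries, and lower in D0 (159 to 218) and D2 (121 to 157). In their own cluster they summed to 2333 CPM. No list of these 3 had a gene at 0 in every library. Cd209a and Flt3, taken from the dendritic cell list, stood in microglia at 0.0432%, 0.0642% and 0.0762% of their dendritic cell-like level in Ctrl, D0 and D2. Axl stood there at 2.79%, 37.3% and 54.5%. Unlike this pair, the whole dendritic cell list was lower in D0 and D2 than in Ctrl. Cbr2 and F13a1 of border-associated macrophages stood at 0.194%, 0.776% and 0.790% of their own level, where Axl stood at 3.39%, 47.6% and 55.4%. These percentages pool all cells of a group, also from libraries with fewer than 20 cells of a type. D0-2 and D0-3 gave 13 and 9 macrophage-like cells. In D0-1, the only D0 library with at least 20, Axl was higher in microglia (36.3 CPM) than in macrophage-like cells (17.9 CPM). In D2-2 it was at 33.8 CPM in microglia and 43.4 CPM in macrophage-like cells.

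Axl was also found in a larger share of D0 and D2 microglia, and Mertk in a smaller one, than in Ctrl. Cells with at least 2000 UMIs were thinned to 2000 and the others were left out, which kept 3176 of 3517 microglia in Ctrl-1. Among the thinned cells, Axl was found in 0.598%, 0.380% and 0.349% of microglia in the Ctrl libraries, 5.44%, 4.67% and 3.41% in D0 and 5.83% and 4.64% in D2. Neutrophil-like cells, which should lack the receptor, held Axl in 0 of 114 cells in Ctrl, which allows a share of up to 2.63%, in 3 of 625 in D0 (0.48%, exact interval 0.0991 to 1.4%) and in 1 of 197 in D2 (0.508%). Median UMIs of the cells so kept, before thinning, were 5537 to 10547 per library in microglia and 3233 to 6154 in neutrophil-like cells. Without thinning the Ctrl libraries held Axl in 1.4% to 2.13% of microglia, those of D0 in 15% to 17.8% and those of D2 in 15.5% to 16.6%. The thinned D0 and D2 shares of Axl lay above that background, and 114 cells are too few to set the Ctrl share against one. Mertk was found in 52.0% ± 2.44 of Ctrl microglia (SD, n = 3), 37.9% ± 2.78 in D0 (n = 3) and 38.5% ± 1.57 in D2 (n = 2), with 8.77%, 2.56% and 2.54% of neutrophil-like cells. Pros1 was found in 40.1%, 34.8% and 35.1% of microglia on average and in 5.26%, 2.24% and 2.03% of neutrophil-like cells, and Gas6 in 24.7%, 22% and 16.6% and in 7.89%, 1.92% and 0 of 197 (up to 1.52%). Exact permutation over libraries cannot go below p = 0.1 for 3 against 3 or p = 0.2 for 3 against 2, and no share passed the adjustment (lowest adjusted p = 0.429). Axl, Mertk and Pros1 reached these limits in D0 and D2, and Gas6 in D2. Pros1 did so although its scaled level gave no call. Thinned cells hold equal total UMIs, so these shares are on the scale of total UMIs and not of TMM. On that scale the median gene moved by -0.26 in D0, and its part in the Mertk and Pros1 shares was not tested.

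The receptors were also read in the same thinned cells. In D0, Axl was found in 5.13%, 3.73% and 2.45% of the thinned cells with a Mertk UMI and in 5.66%, 5.19% and 4.0% of those without one. In D2 the shares were 5.10% and 3.01% with Mertk and 6.27% and 5.71% without. In Ctrl the shares were 0.407%, 0.271% and 0.322% with Mertk and 0.823%, 0.501% and 0.376% without. These Ctrl shares rest on only 38 cells with Axl among 8436, so their order within a library says little. The share was lower among the cells with Mertk in each of these Ctrl, D0 and D2 libraries. It was higher in D2-3 (10.8% against 7.09%), and all of this is a description with no test.

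Microglia-like cells split into 12 clusters, drawn without the 5 members but with all other genes of the same cells, so levels across them are a description. Axl in D0 was highest in the cluster led by the interferon-response genes Ifit3 and Isg15 (73.0 CPM) and in that led by Igf1 and Arg1 (44.7 CPM). In D2 those clusters held 71.4 and 78.2 CPM. The clusters led by Gadd45b, Cxcl2 and Il1b and by Ccl12, Nes and Mcm6 held 34.5 and 36.3 CPM of Axl in D0. Axl was also found in the few Ctrl cells of the Gadd45b, Ccl12 and Ifit3 clusters, at 25.8 (n = 3), 33.6 (n = 2) and 31.8 CPM (n = 2). These made up 1.52%, 0.909% and 1.72% of Ctrl microglia. The clusters that made up most of the Ctrl microglia were low in Ctrl, with 0.940 CPM in the Klf2 and Hspa1b cluster (31.4% of Ctrl microglia) and 0.526 CPM in the Bank1 and Csmd3 cluster (25.2%). Axl was at 1.16, 0 and 0.418 CPM in the Ctrl libraries of the Bank1 cluster, on 11, 0 and 1 UMIs. In its D0 libraries it was at 11.4, 6.81 and 12.7 CPM, on 3, 1 and 8 UMIs. These groups did not overlap, but the share of genes without overlap was not counted within clusters. Over all microglia, 18.8% of genes had every D0 library above Ctrl. Axl did not pass the filter on low counts in the Bank1 cluster. Its mean in D0 was 2.83 CPM in the Klf2 cluster and 3.87 CPM in the Crybb1 cluster, against 0.940 and 1.25 CPM in Ctrl, and there the libraries overlapped. In D0 the Klf2 and Bank1 clusters made up 3.28% and 2.01% of microglia, and the Gadd45b cluster 29.5% against 1.52% in Ctrl. Genes that differ between conditions drew the clusters, so their sizes are not compared as a result.

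Mertk had another order along the clusters. It was highest in the Fosb cluster, at 552, 498 and 649 CPM in Ctrl, D0 and D2, and stood at 436 CPM in Ctrl and 451 in D0 in the Bank1 cluster. It was lowest in the mitotic cluster led by Top2a and Mki67 (99.4 CPM in D0 and 129 in D2). It was also low in the Igf1 cluster (190 in D0 and 191 in D2) and in the Ccl12 cluster. The latter held 189 CPM in D0 and 166 in its 1 D2 library, against 313.5 in Ctrl. Fitted within single clusters, a step chosen after seeing the data, Mertk was not called in any of them. Its log2 fold change in D0 ranged from -0.53 (adjusted p = 0.21) in the Ccl12 cluster to 0.21 in the Egr1 and Fos cluster.

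Axl passed the filter on low counts within 5 clusters in D0 and was not called in them. The Klf2, Bank1 and Crybb1 clusters, which held most Ctrl cells, were not among the 5. Its log2 fold change in D0 was 0.84 (adjusted p = 0.63) in the Chst2 cluster, 0.31 in the Gadd45b cluster, 1.70 (adjusted p = 0.32) in the Egr1 cluster, 0.22 in the Ccl12 cluster and 1.25 (adjusted p = 0.059) in the Ifit3 cluster. In D2 it was 0.86, 0.78, 1.66 (adjusted p = 0.15) and 1.2 (adjusted p = 0.065) in the Chst2, Gadd45b, Egr1 and Ifit3 clusters. The 5 D0 values were positive. Such fits called few genes in D0: 0.290% in the Chst2, 0.0329% in the Gadd45b, 0.471% in the Klf2, 0.983% in the Bank1, 0.290% in the Crybb1, 0.312% in the Egr1, 2.86% in the Ccl12, 0.725% in the Ifit3 and 0.231% in the Fosb cluster. In D2 they called 3.44%, 1.69%, 2.93%, 1.79% and 9.05% in the Chst2, Gadd45b, Egr1, Ifit3 and Fosb clusters. A missing call in such fits does not show that a level was the same.

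Gas6 differed both between libraries and between clusters. D0-3 held 109.9 to 264 CPM of Gas6 over its clusters, against 34.3 to 141 in D0-1. In D2-1 the Ccl12 cluster of 840 cells held 275 CPM, while the Chst2, Egr1, Gadd45b and Ifit3 clusters of that library held 61.9 to 106 CPM. The Ccl12 cluster made up 19.2% of the microglia of D0-3 and 27.6% of those of D2-1, against 0.258% of D2-2. The part of library and cluster in the Gas6 spread was not tested.

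**Figure D2:**
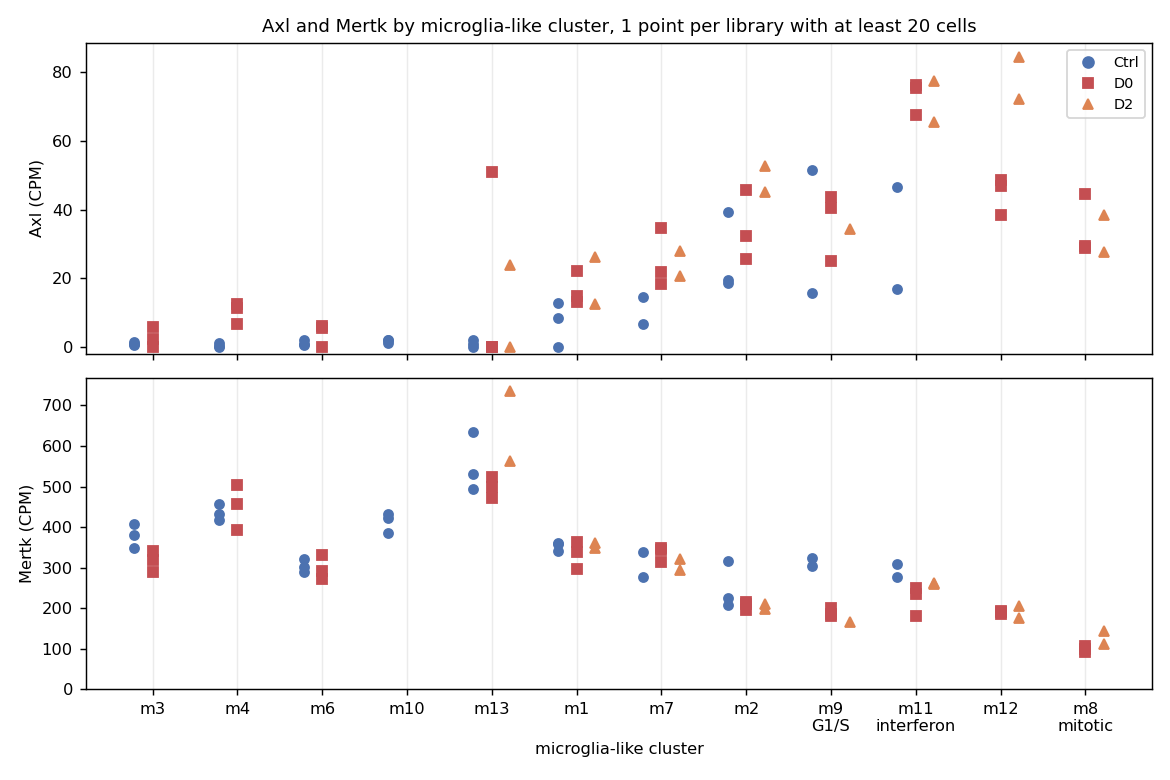
Axl and Mertk (CPM) in each microglia-like cluster, 1 point per library with at least 20 cells, where m3 is led by Klf2, m4 by Bank1 and Csmd3, m6 by Crybb1, m10 by Bank1 and Sox4, m13 by Fosb, m1 by Chst2, m7 by Egr1, m2 by Gadd45b, m9 by Ccl12, m11 by Ifit3, m12 by Igf1 and m8 by Top2a. Group means of Axl are low in Ctrl cells of m3 and m4 (0.940 and 0.526 CPM) and high in m11 and m12 of D2 (71.4 and 78.2 CPM). Ctrl cells of m2, m9 and m11 hold 25.8, 33.6 and 31.8 CPM of Axl. Mertk is lowest in the mitotic cluster m8.

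MAC2 is galectin-3, the product of Lgals3, which is itself known as a ligand of Mertk. MAC2+ cells were microglia-like cells whose log Lgals3 level was over the mean plus 1 SD of all kept myeloid cells. They were 718 of the 22131 microglia, with 120 cells within 0.1 SD of that limit, so they are a range and not a type. Within libraries Axl was higher in MAC2+ than in MAC2- microglia in the 7 of 7 libraries that were fitted, which are those with at least 20 MAC2+ cells other than D2-3. Ctrl-2, with 12 MAC2+ cells, was not fitted and went the other way, with no Axl UMI in these cells (a 0 allows up to 32.3 CPM) against 2.20 CPM in its MAC2- cells. D2-3 held 66.2 CPM in 50 MAC2+ cells against 35.1. Axl stood at 68.6 and 52.5 CPM in MAC2+ cells of Ctrl-1 and Ctrl-3, on 14 and 13 UMIs, against 3.46 and 2.14 in the MAC2- cells. In D0 it stood at 73.5, 55.8 and 63.3 CPM against 33.9, 29.1 and 22.9, and in D2 at 59.2 and 63.4 against 36.1 and 30.5. The MAC2+ levels of the fitted libraries lay between 52.5 and 73.5 CPM, while the MAC2- levels of Ctrl lay under those of D0 and D2. With library as a block the log2 difference of Axl was 1.27 (SE 0.24, edgeR adjusted p = 5.48e-04), where 18.6% of 11785 genes were called, and the difference of this contrast between groups was not tested.

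Mertk was lower in MAC2+ cells in 7 of 7 fitted libraries (-0.28, SE 0.07, edgeR adjusted p = 0.00773), and so was Pros1 (-0.36, SE 0.07, adjusted p = 9.43e-04). Gas6 differed by -0.18 (adjusted p = 0.224) and was higher in 2 of 7 libraries. On thinned cells the Pros1 difference was -0.21 (adjusted p = 0.341). Border-associated macrophage markers were higher in MAC2+ than in MAC2- cells in every library, from 14.4 against 11.1 CPM in D0-2 to 157 against 10.3 CPM in Ctrl-1. Microglia markers were lower in MAC2+ cells in every library, with 17640 against 27547 CPM in Ctrl-1 and 14054 against 19107 in D0-2. The part of both in the Axl, Mertk and Pros1 differences was not tested. In D0, 49.6% of the MAC2+ cells lay in the Gadd45b cluster, which held 29.5% of all D0 microglia. In Ctrl, 27.0% of the 63 MAC2+ cells lay in the Klf2 cluster, against 31.4% of all Ctrl microglia. The Ccl12 and Gadd45b clusters held 20.6% and 14.3% of them (13 and 9 cells), against 0.909% and 1.52% of all Ctrl microglia. The part of the clusters in the MAC2 differences was not tested.

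**Figure D3:**
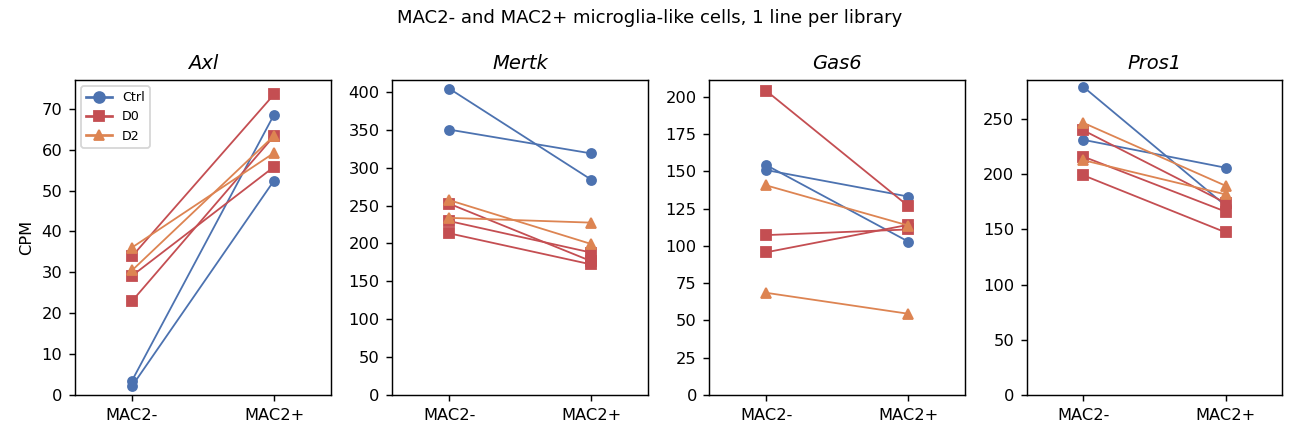
Level of Axl, Mertk, Gas6 and Pros1 (CPM) in MAC2- and MAC2+ microglia, with 1 line per library. Axl rises along every line of the 7 tested libraries, to 52.5 to 73.5 CPM, and the Mertk and Pros1 lines fall.

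Across the other cells in the sort, each receptor and ligand had its own order of levels. Axl was highest in mural-like cells (95 ± 38.9 CPM, SD, n = 6), dendritic cell-like cells (89.0 ± 30.1, n = 7) and border-associated macrophage-like cells (63.2 ± 41.9, n = 5), and these did not differ beyond their spread. Microglia (21.4 ± 15.8 CPM, n = 8) and monocyte-like cells (16.8 ± 11.8, n = 7) had no fixed order, since Axl in microglia depended on the group. In Ctrl-2 and Ctrl-3 monocyte-like cells held 29.3 and 4.84 CPM against 2.19 and 2.65 in microglia. The Ctrl-3 value rests on 1 UMI, where a 0 would allow up to 14.5 CPM. In D0-1, D0-2 and D0-3 monocyte-like cells held 31.9, 4.57 and 6.03 CPM against 36.3, 30.5 and 23.9 in microglia. In D2-1 and D2-2 they held 18.2 and 22.8 CPM against 37.5 and 33.8. Axl was under 4 in lymphoid-, endothelial- and neutrophil-like cells. Mertk was high in microglia (288 ± 76.8 CPM, n = 8) and in astroglial-like cells (251, n = 2). The latter came from D0-3 and D2-1 alone, with 267 and 234.5 CPM against 228 and 233 in the microglia of the same libraries. Next came border-associated macrophage-like cells (161 ± 106, n = 5). In dendritic cell-like cells Mertk was at 21.3 CPM, under its neutrophil-like level of 47.7 ± 55.8. Tyro3 was highest in astroglial-like cells, at 15.8 CPM on 5 and 2 UMIs.

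The ligands were found in vessel and barrier cells as well. Gas6 was at 640 CPM in the ependymal or choroid plexus-like cells of the only library with enough of them, on 166 UMIs, at 268 ± 138 CPM in border-associated macrophage-like cells (n = 5), 245 ± 32.0 in endothelial-like cells (n = 8) and 131 ± 41.2 in microglia (n = 8). Pros1 was highest in microglia (232 ± 25.8, n = 8), then in border-associated macrophage-like cells (136, n = 5) and endothelial-like cells (113 ± 12.1, n = 8). Endothelial-like cells held the microglia markers Tmem119, P2ry12, Siglech and Fcrls at 6.34%, 8.88% and 5.59% of their microglia level in Ctrl, D0 and D2, and Gas6 at 177%, 197% and 194% of it. In neutrophil-like cells those markers stood at 28.5%, 8.39% and 4.03%, and Mertk at 30.5%, 9.98% and 4.77%, Gas6 at 36.1%, 8.24% and 3.85% and Pros1 at 24.5%, 8.23% and 4.19%. These 3 members thus were lower in D0 and D2 together with the microglia markers. Axl stood at 0%, 9.17% and 9.90% of its microglia level, on few UMIs. Ctrl-2 and Ctrl-3 held 0 Axl UMIs, which allows up to 7.50 and 14.9 CPM, above their microglia level of 2.19 and 2.65 CPM. The D0 libraries held 0, 8 and 4 Axl UMIs and those of D2 4 and 1. Axl therefore cannot be set against the other 3 members here.

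**Figure D4:**
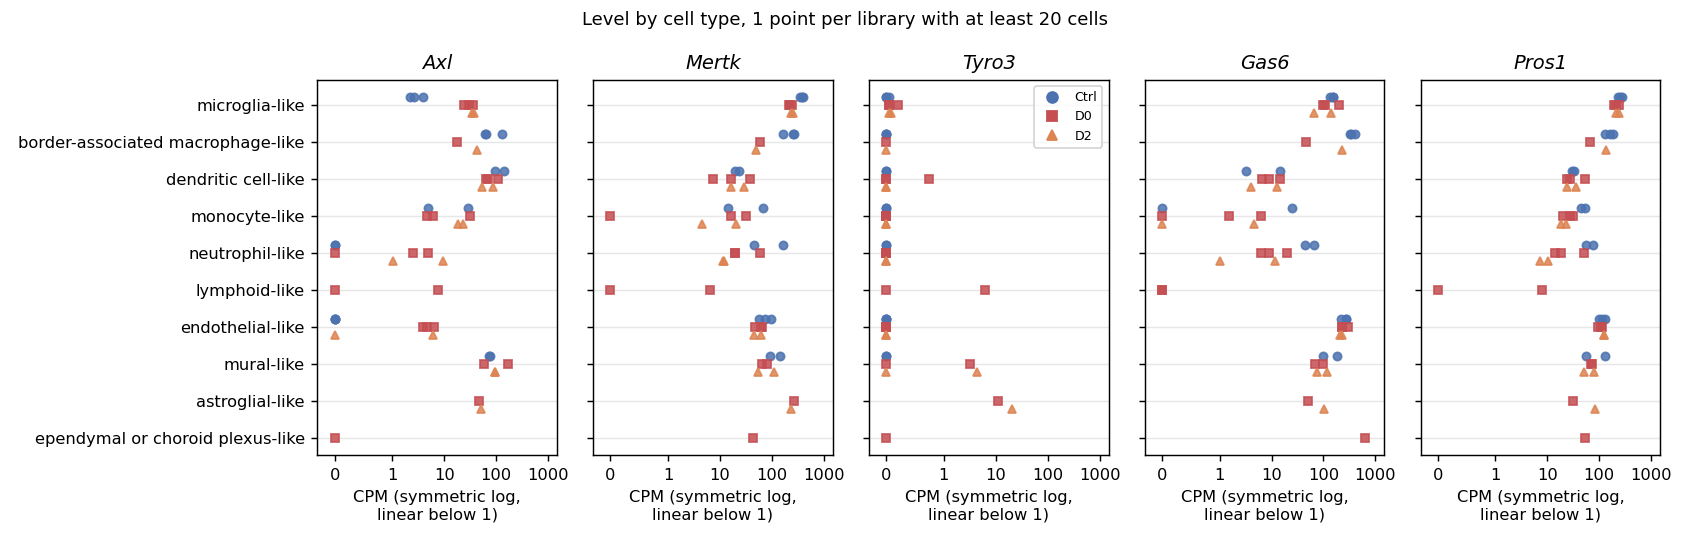
Level of each member (CPM, symmetric log axis) by cell type, with 1 point per library that held at least 20 cells. Axl points of microglia-like cells split by group, Pros1 is high in microglia-like cells, Mertk is high in microglia- and astroglial-like cells, and Gas6 is spread over ependymal-, endothelial- and macrophage-like cells.

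Border-associated macrophage-like cells held microglia markers at 57.9%, 72.4% and 72.5% of the microglia level, and the part of microglia in their Mertk and Pros1 values was not tested. In their Ctrl libraries Axl stood at 84.9 ± 39.7 CPM (SD, n = 3), Mertk at 231 ± 60.0 and Gas6 at 354 ± 43.1. Only 1 D0 and 1 D2 library held 20 such cells, with Axl at 17.9 and 43.4 CPM, Mertk at 60.5 and 49.6 and Gas6 at 47.0 and 230, so no test was made. In Ctrl their Axl level was 2954% of that in microglia.

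5 other cell types had enough libraries for a test. In dendritic cell-like cells Axl had a log2 fold change of -0.42 (SE 0.33, edgeR adjusted p = 0.862) in D0 and -0.75 (SE 0.37, adjusted p = 0.808) in D2, and in mural-like cells 0.49 (SE 0.47) and 0.34 (SE 0.48). Monocyte-like cells gave -1.20 (SE 0.78) in D0 and -0.05 (SE 0.80) in D2. None of these was called. The fits called 0.0138%, 0.0122%, 0.551%, 0.0235% and 0.0869% of genes in dendritic cell-, endothelial-, monocyte-, mural- and neutrophil-like cells in D0, and 0%, 0.0608%, 1.13%, 0.0939% and 2.87% in D2. The Axl change differed from that in microglia in all 3 of these types, as tested by an interaction term. In D0 the difference was -3.71, -4.98 and -2.84 on the log2 scale for dendritic cell-, monocyte- and mural-like cells. For monocyte-like cells the Ctrl level rests mostly on Ctrl-2, with 26 Axl UMIs against 1 in Ctrl-3. The only member called in another type was Mertk in neutrophil-like cells in D2 (-2.83, SE 0.63, adjusted p = 0.0438), and there the microglia markers stood at 4.03% of their microglia level, against 28.5% in Ctrl. That Mertk call was lost without Ctrl-2 (-1.67, adjusted p = 0.574), D0-3 (adjusted p = 0.0632), D2-1 (adjusted p = 0.149) or D2-2 (adjusted p = 0.305), where omitting Ctrl-2, D2-1 or D2-2 leaves 1 library in that group, and it was lost with at least 10 cells (adjusted p = 0.174) and with the replicate block (-3.32, adjusted p = 0.0537).

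Other genes of the pathway were taken from 6 lists. Of 17 interferon response genes tested, 11 rose and 0 fell in D0 (median log2 fold change 0.87) and 14 rose in D2 (median 1.56). Over all genes 12.3% were called higher in D0 and 10.8% in D2, with medians of -0.05 and -0.03. Ifitm3, an antiviral membrane protein, went from 27.6 ± 6.09 scaled CPM (SD, n = 3) to 151 ± 12.3 in D0 and 178 ± 25 in D2. Isg15, a ubiquitin-like modifier, rose by 1.19 (edgeR adjusted p = 0.0046) and Bst2, which tethers virions, by 0.87 (adjusted p = 4.07e-04) in D0, and Ifit2 by 2.01 and Ifit3 by 1.82 in D2. The Ctrl libraries lay below all others for Ifitm3, with 22.1 to 34.2 CPM in Ctrl and 139 to 196 in the others.

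Of 17 other phosphatidylserine receptors and bridging proteins tested, 3 rose and 2 fell in D0, and 5 rose and 4 fell in D2. Over all genes 12.3% were called higher and 7.43% lower in D0, which the D0 counts are near, and 10.8% and 7.71% in D2. Stab1, a scavenger receptor, fell by 0.67 in D0 and by 0.89 in D2 (edgeR adjusted p = 0.0138 and 0.00652), and Itgb3, the integrin beta 3 that takes up Mfge8-coated cells, fell by 0.58 and 0.93. Itgav, its alpha partner, fell by 0.64 in D2. The genes that rose in D0 were low: Cd36, Cd300lf and Anxa1 were under 20 CPM in both groups, and they are named here after their values were seen. Of 14 genes of the engulfment machinery, 0 rose and 2 fell in D0, and 3 fell in D2, where 7.43% and 7.71% of all genes were called lower. Elmo1, which activates Rac, fell by 0.57 and 0.84, and the kinase Abl1 fell by 0.65 and 0.89.

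The lists closest to the ligands and to the steps after engulfment gave 1 call in all. None of 6 genes for ligand carboxylation and receptor shedding and none of 7 for phosphatidylserine exposure were called by edgeR in D0 or D2. Of 11 nuclear receptor and lipid efflux genes, 1 fell in D0, Mylip (-0.48, adjusted p = 0.0164), which marks lipoprotein receptors for degradation, and 0 were called in D2. Between D2 and D0 no listed gene was called.

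**Figure D5:**
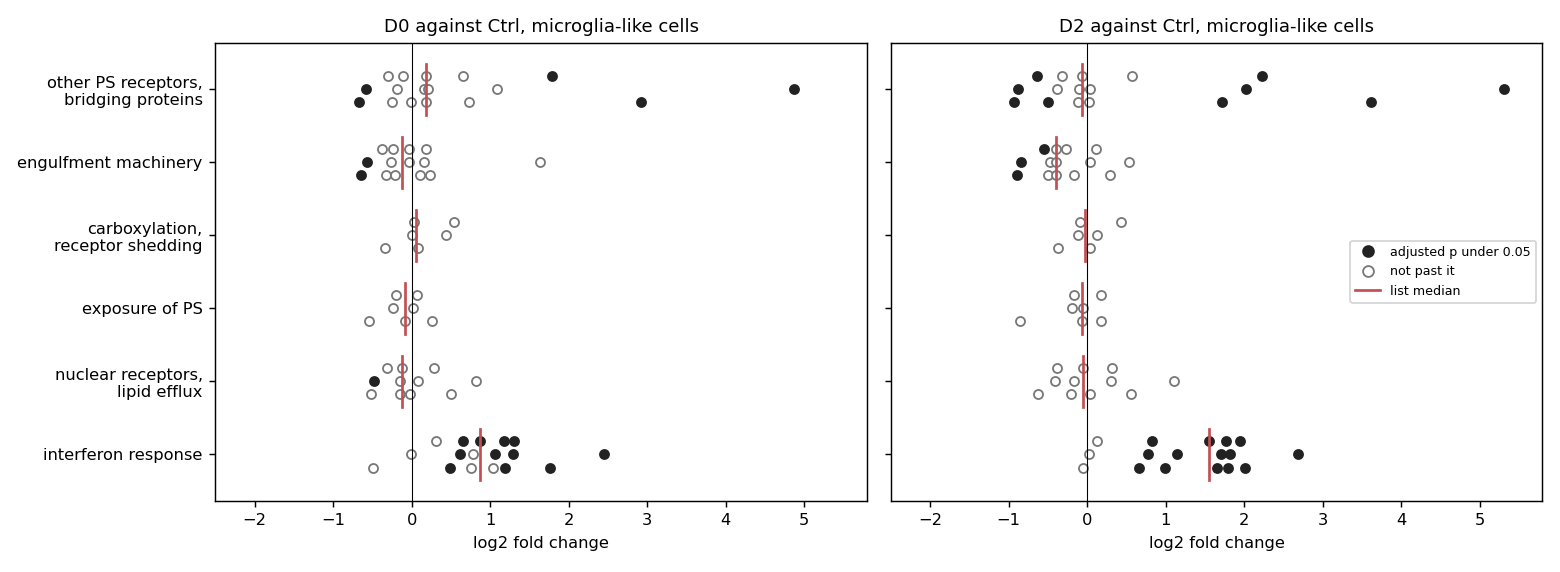
Log2 fold change of every tested gene of the 6 pathway lists in D0 and D2 against Ctrl, filled where called, with a line at the list median (PS, phosphatidylserine). The interferon list has its median at 0.87 and 1.56, and the other 5 lists lie near the median over all genes (-0.05 and -0.03), apart from the engulfment list in D2 (-0.40).

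Genes whose log level followed each member most closely over the 10 cell types were ranked among 11005 genes by Pearson's r of the mean level, as a description over types that share libraries and depth. For Axl these were Slc4a7 (0.864), Nsmce2 (0.826) and Sgpp1 (0.816), and for Mertk Ppp1r9a (0.963), Sox4 (0.952) and Mpi (0.95). For Gas6 they were Yipf2 (0.936), Atxn1 (0.935) and Dmap1 (0.934). Like Gas6, these 3 were highest in ependymal or choroid plexus-like cells, whose level rests on 1 library. For Pros1 they were Rgmb (0.962), Vps35 (0.956) and Sparc (0.954). Axl thus had no gene as close to it as the other members had. Tyro3 was too low to be compared.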

How the data were processed

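Per the labels and the headers of the files, the authors ran Cell Ranger on reads aligned to mm10 and deposited raw UMI counts per gene and barcode, 1 matrix per library. The labels name Cell Ranger 3.1.0, and the headers give 3.0.2 for 6 libraries and 3.1.0 for 3, among them D2-3 and 2 of Ctrl, so that the version runs with the groups in part. The deposited values were not normalized. Here, barcodes were kept from 500 up to 20000 UMIs, from 200 genes upwards and with no more than 10% of UMIs from mitochondrial genes, and clustered with scanpy 1.11.5 (Leiden resolution 0.6) without the 5 members. Clusters were named "-like" from marker lists. Doublets were not removed: Scrublet called 59 of 30463 cells (0.194%), which is below what a working caller finds, so removing the top 4% of scores was an alternative. UMIs were summed per library and cell type and tested with edgeR 4.0.16 in R 4.3.3 (TMM, filterByExpr, quasi-likelihood test, Benjamini-Hochberg over all genes tested, called at an adjusted p under 0.05), with DESeq2 1.42.0 as an alternative. Tests and CPM levels by cell type used libraries with at least 20 cells of a type. Percentages of the level in another cell type pooled all cells of a group. Scripts were tested on simulated data. Tests used 8 libraries, since the study left out D2-3. The main group tests took the libraries as unpaired, with a block for the replicate number as an alternative. Same-numbered libraries of Ctrl and D0 deviated together from their group means (r = 0.418, 0.193 and 0.175 over genes). The differently numbered Ctrl-3 and D0-2 did so as well (r = 0.301). Same-numbered libraries of Ctrl and D2 had r = 0.0459 and 0.0765. The genes named are the 5 members, up to 3 called genes per list and direction with at least 20 CPM, and the 3 closest in pattern to each member. The members and lists were chosen with earlier results of these data known. Fits on total UMIs and within single clusters were added after seeing the data. Gene positions are from GENCODE on GRCm38, and upstream windows from RefSeq on GRCm38.p6, where 5 of 5 members matched.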

Additional observations from a re-analysis of the deposited data

Results flagged for a closer look

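The Axl change differed between cell types by an interaction term, fitted over the sums of 2 cell types at a time with library as a block. Against the change in microglia-like cells, the Axl change was smaller by these log2 amounts in D0 and D2: -3.71 and -4.26 in dendritic cell-like cells, -4.98 and -3.96 in monocyte-like cells, and -2.84 and -3.15 in mural-like cells. In neutrophil-like cells the change of Gas6 differed from that in microglia by -1.93 in D0 and -2.66 in D2, that of Mertk by -2.14 in D2 and that of Pros1 by -2.34 in D2. In monocyte-like cells the Gas6 change differed by -2.20 in D0 (edgeR adjusted p = 0.0106). Their Gas6 UMIs numbered 22 in Ctrl-2 and 0 in Ctrl-3, and 0, 7 and 1 in the D0 libraries, so the Ctrl level rests on 1 library. Their Axl UMIs numbered 26 in Ctrl-2 and 1 in Ctrl-3, so the Ctrl level behind the Axl difference also rests mostly on Ctrl-2. Mertk and Pros1 in monocyte-like cells were also highest in Ctrl-2 (66.6 and 54.2 CPM), and the part of microglia in these values was not tested. Gas6 did not pass the filter on low counts when monocyte-like cells were fitted alone. Of the 50 pairs of member, cell type and comparison, 40 gave a value. Microglia markers were also lower in the neutrophil-like cells of D0 and D2, and their part in these differences was not tested. The left-out library D2-3 held 37.3 CPM of Axl in its microglia-like cells, above the Ctrl libraries (2.19 to 3.97 CPM before scaling). These cells were placed by their neighbours, and their microglia markers were low. The markers summed to 7421 CPM in its MAC2+ and 8894 CPM in its MAC2- cells, against 15559 to 16019 CPM in microglia of the other D2 libraries. The part of this in the D2-3 levels was not tested.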

How the results depend on the processing

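Axl kept its direction and its call in microglia under 25 alternatives in each comparison with Ctrl, with log2 changes of 2.16 to 3.81 in D0 and 2.26 to 3.97 in D2, the lowest being those over all kept myeloid cells. It was not called within the single clusters where it could be fitted. The number of members called in microglia (2 in each comparison with Ctrl) fell to 1 in D0 and in D2 with libraries of a shared Cell Ranger version (1 Ctrl library, so that the other groups give the spread), with D2-3, with thinned cells and without mitotic clusters. It was 0 within each single cluster that could be fitted, and it ranged from 1 to 2 in D2 with 1 library left out. The Mertk fold change within single clusters reversed in D0 to 0.0801, 0.17, 0.0684 and 0.21 in the Chst2, Bank1, Crybb1 and Egr1 clusters, and in D2 to 0.15, 0.12 and 0.22 in the Chst2, Egr1 and Fosb clusters. The cause was not tested. In the other cell types the count of pairs called was 2 in D0 without a filter on low counts (0 with it). In D2 it was 1, and it became 3 without the filter, 2 with D2-3, 0 with at least 10 cells and 0 with the replicate block, and ranged from 0 to 2 with 1 library left out. The replicate block kept 2 members called in microglia in both comparisons. Mertk in astroglial-like cells moved from 251 to 275.0 CPM with at least 10 cells, and Pros1 in border-associated macrophage-like cells from 136 to 78.4 CPM at resolution 0.3. At that resolution no dendritic cell-like cluster was named. The macrophage-like cluster then held 1190 cells, and its top genes included H2-Eb1 and the dendritic cell marker Cd209a. At resolution 0.6 the macrophage-like and dendritic cell-like clusters held 596 and 604 cells. Levels at these resolutions are therefore of different sets of cells. In the larger cluster Gas6 stood at 135 CPM, against 268 at resolution 0.6, and Mertk at 92.2 against 161. Both moves were within the SD over libraries (138 and 106 CPM). The D2 minus D0 difference in the share of cells with a UMI turned from 0.650 to -4.67 points for Mertk without thinning, and from 0.356 to -8.60 for Pros1 without thinning and -0.758 at 1000 UMIs. With 2 or 3 libraries per group, differences smaller than their intervals could not be shown.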
